A study of Rattus norvegicus with 11 samples.

Results

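The Rab, SNARE and synaptotagmin genes that run vesicle traffic and exocytosis were compared between the epithelial cell types of the rat alveolus. Members were chosen by name alone: every gene with a symbol beginning Rab, Vamp, Stx or Syt and a number, Stxbp, or Snap and a number, together with Napa and Nsf, as far as a probe set of the array was annotated to that gene and no other. This gave 63 genes of the 4736 measured by such probe sets, and 91 of 8740 probe sets. Where a gene had several, the one brightest on average across the 11 arrays was used. The naming rule, and the roles used below, were set with earlier results of these data known. The members were 28 Rab GTPases with the Rab partners Rab3ip and Rab11fip5, 15 SNAREs, 13 synaptotagmins, the SNARE regulators Stxbp2, Stxbp5, Napa and Nsf, and the clathrin adaptor Snap91, which carries a SNAP symbol but is no SNARE.

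RNA was taken from 3 kinds of rat lung epithelial cell. Freshly isolated type I (TI) cells, the flat cells that cover most of the alveolar surface, gave 4 arrays. Freshly isolated type II (TII) cells, the cuboidal cells that secrete surfactant, gave 4 arrays, and TII cells kept in culture gave 3. The titles put the fresh cells at day 0 and the culture at day 7, and the group of an array was read from its description and title, because the source field names TI cells for all 11. Strain, age, sex, the way the cells were isolated and the culture conditions are not stated in the labels. Whether the arrays within a group represent separate animals or isolations is not stated either, so p-values measure only the spread between these arrays.

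Transport vesicles carry cargo between organelles and to the cell surface. Rab GTPases mark each membrane and recruit tethers and motors, SNAREs on vesicle and target zip together to fuse the membranes, Sec1/Munc18 proteins (Stxbp) and the Napa-Nsf disassembly machine control the SNAREs, and synaptotagmins couple many fusion steps to calcium. In TII cells surfactant is stored in lamellar bodies, which are lysosome-related organelles, and is released by regulated exocytosis.

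The listed markers fit the group labels: all 8 measured type I markers were higher in fresh TI than fresh TII cells, all 9 type II markers were lower in fresh TI cells, and 8 of the 9 were lower in culture. Arrays were alike within groups: Pearson r over all probe sets ranged from 0.978 to 0.996 for fresh TI, 0.995 to 0.998 for fresh TII and 0.986 to 0.994 for cultured cells, against 0.913 to 0.947 between groups. Signal is given on the deposited log2 scale, which ran from 1.37 to 13.16 with array medians of 5.43 to 5.51. Signal of one probe set cannot be set against that of another, so levels are compared only within a gene. A difference was called when its Benjamini-Hochberg adjusted p from a limma model of all 11 arrays was under 0.05, with the adjustment made over 8740 probe sets. Differences are log2 values ± SE from that model, with n = 4, 4 and 3 arrays. All 3 comparisons share arrays with each other, so their values are set side by side and are not independent.

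The fresh cell types differed modestly in these genes. In fresh TI against fresh TII cells, 14 of the 63 members were higher and 11 lower (22.2% and 17.5%), where 33.0% of all 4736 genes were higher and 21.2% lower. The groups did not overlap for 17 members (27.0%), against 50.4% of all genes. No member reached a 2-fold difference. This count, and those at 2-fold below, are given without the share of all genes, so they do not set the members apart from other genes. The endosomal syntaxin Stx7 was furthest above zero and the granule GTPase Rab27a furthest below it. Of the 28 Rab GTPases 9 were called lower, 2 higher and the others not called, with a family median of -0.01. Of the 13 synaptotagmins 6 were called higher and none lower. The count of higher members was the less firm: it was 9 without fresh TI array 1, 7 without fresh TII array 1, 8 without fresh TII array 2, and 8 under each of quantile normalization, median centring and median centring with a matched standard deviation. The lower members numbered 7, 13 and 9 under those scalings, the lower Rab GTPases 7, 10 and 8, and the higher synaptotagmins 2 under each.

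In culture the called members moved mostly upward. Of the 63, 21 rose and 7 fell between fresh TII cells and day 7 of culture (33.3% and 11.1%), where 20.5% of all genes rose and 14.0% fell. The groups did not overlap for 37 members (58.7%), against 44.5% of all genes, and 5 members changed at least 2-fold. Early endosome and early secretory pathway Rabs (Rab5a, Rab1a, Rab6a) and the surface SNARE Snap23 rose, while the granule GTPases Rab3a, Rab27a and Rab38 and the vesicle SNARE Vamp2 fell. The median member difference was 0.15, against a median of -0.01 over all genes.

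Between fresh TI and cultured TII cells, more of the called members were lower in fresh TI cells, while the share of members called was near that of all genes. In fresh TI against cultured TII cells 11 members were higher and 25 lower (17.5% and 39.7%), where 34.2% of all genes were higher and 25.8% lower. The groups did not overlap for 34 members (54.0%), against 57.7% of all genes, and 10 differed at least 2-fold. Recycling and endosomal Rabs (Rab11a, Rab5a, Rab7a), Rab10 and Snap23 were lower in fresh TI than in cultured cells, and Syt17 and Vamp2 were higher. The median member difference was -0.07, against 0.11 over all genes. RNA was measured in bulk, so fewer cells of a type and less RNA per cell cannot be told apart in any of these comparisons.

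**Figure D1:**
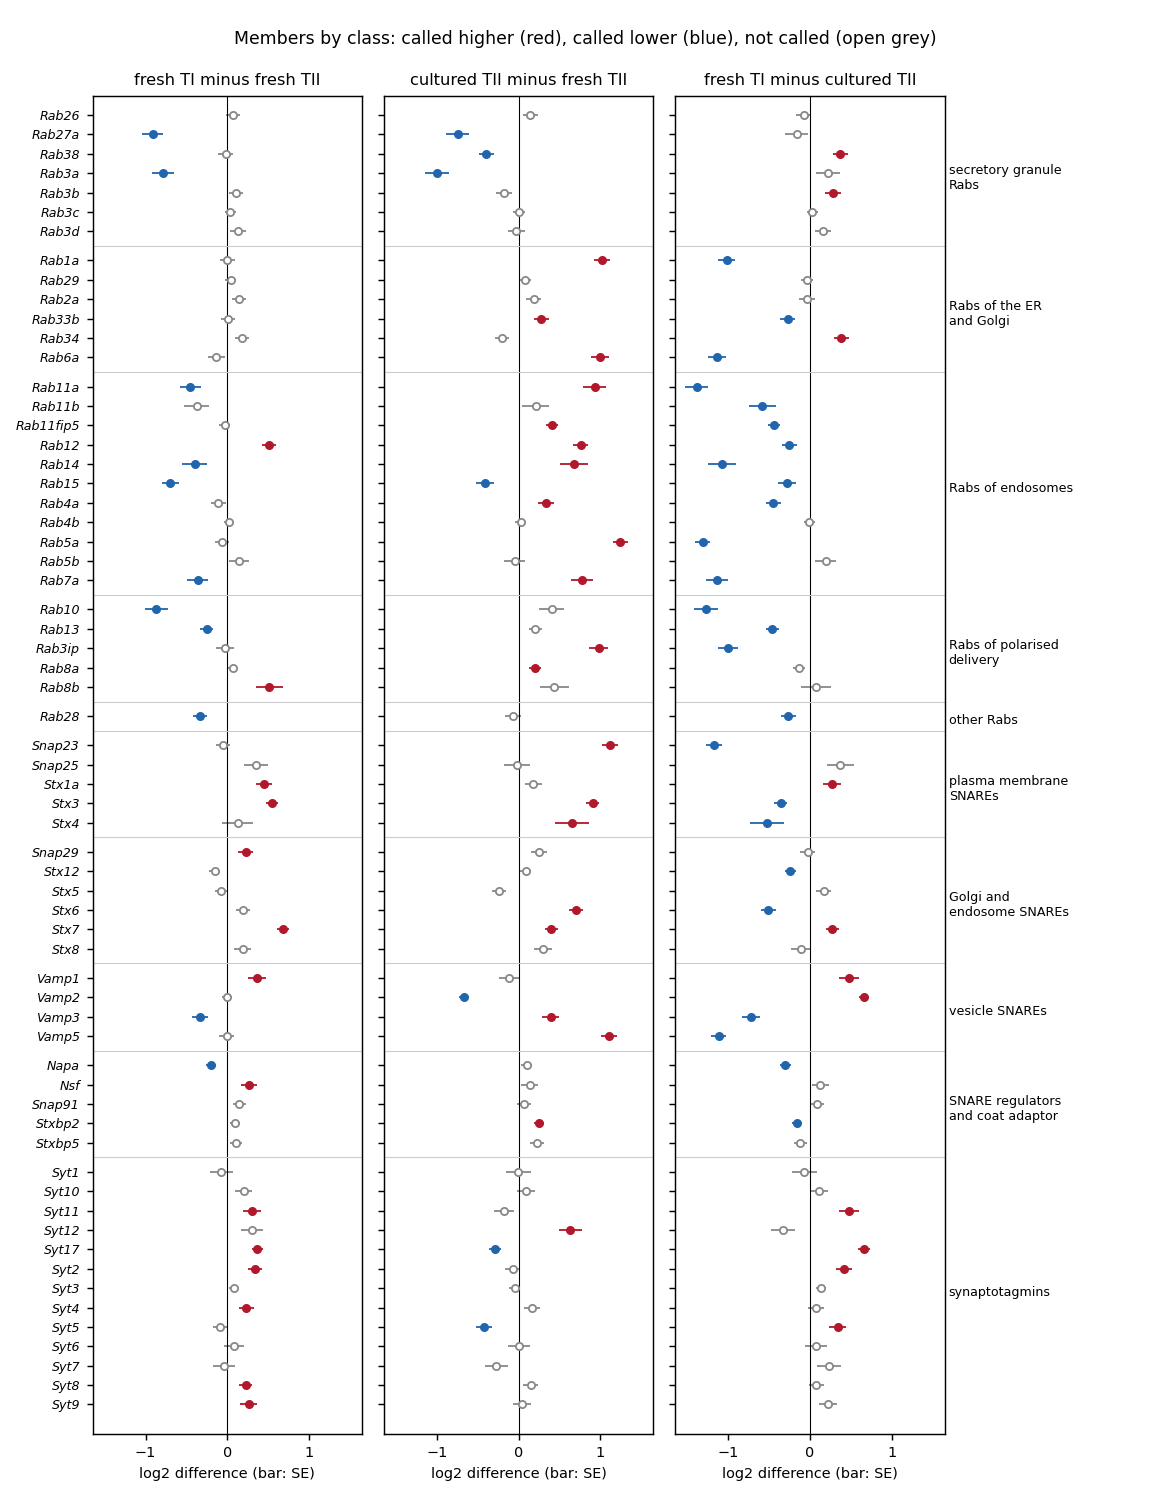
Log2 difference of each of the 63 members (rows, grouped by role) in the 3 comparisons (panels), with points at the model estimate and bars for its SE. Filled red points were called higher, filled blue points called lower and open grey points not called at adjusted p under 0.05; culture has 21 red points against 7 blue.

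**Figure D2:**
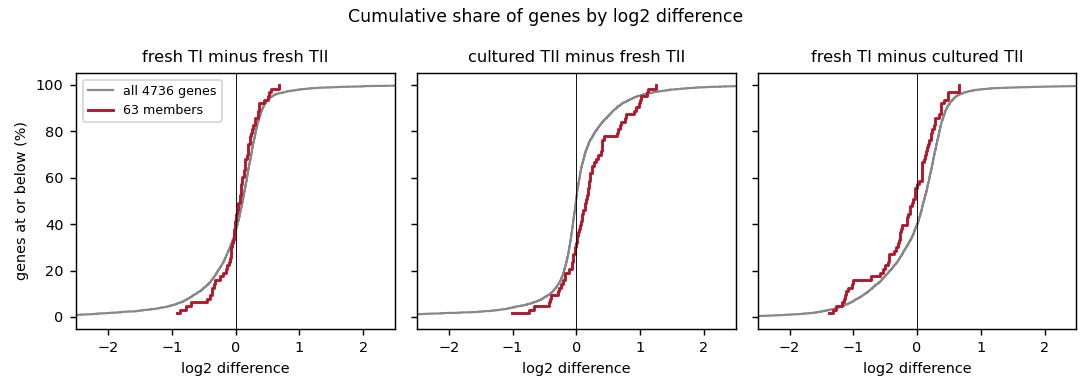
Cumulative share of genes (vertical axis, %) at or below each log2 difference (horizontal axis) for the 63 members (red) and all 4736 genes (grey) in the 3 comparisons. The member curve lies to the right of the grey curve over most of the culture panel, where the medians were 0.15 and -0.01.

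The secretory granule Rabs held the member furthest below zero in fresh TI against fresh TII cells. Rab27a docks granules and lysosome-related organelles at the plasma membrane. Rab27a signal was 4.26, 4.34, 4.61 and 4.32 on the fresh TI arrays, 5.21, 5.64, 4.93 and 5.40 on the fresh TII arrays and 4.54, 4.57 and 4.52 on the cultured arrays. Every fresh TII array lay above every other array, and the difference was -0.91 ± 0.13, adjusted p = 9.14e-05 for fresh TI and -0.75 ± 0.14, adjusted p = 0.000856 for culture. Fresh TI and cultured cells did not differ beyond the threshold (-0.16 ± 0.14, adjusted p = 0.316).

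Rab3a, best known from regulated secretion and synaptic vesicles, was also highest in fresh TII cells. Rab3a signal was 4.91, 5.37, 5.27 and 5.19 on the fresh TI arrays, 6.04, 5.74, 6.36 and 5.74 on the fresh TII arrays and 4.999, 4.99 and 4.91 on the cultured arrays. The lowest fresh TII array was again above the highest of the other 7. The fresh TI difference was -0.79 ± 0.14, adjusted p = 0.000442, and the difference in culture was -1.003 ± 0.15, adjusted p = 0.00012, a 2-fold decrease and the lowest value of any member in that comparison. The promoters of these members, whose signal was highest in fresh TII cells, are shown from the RefSeq tables for GRCr8, from 250 bases before to 50 after the gene start and in the direction of the gene. Capitals mark matches on either strand to a CCAAT box (CCAAT), a GC box (GGGCGG), an E-box (CACGTG), an NK2 core (CAAGTG) or a TATA box (TATAAA). The first, at chr8:82663123-82663422 on the plus strand, holds GC boxes, and the second, at chr16:18722224-18722523 on the minus strand, holds GC boxes and a CCAAT box.
Rab27a: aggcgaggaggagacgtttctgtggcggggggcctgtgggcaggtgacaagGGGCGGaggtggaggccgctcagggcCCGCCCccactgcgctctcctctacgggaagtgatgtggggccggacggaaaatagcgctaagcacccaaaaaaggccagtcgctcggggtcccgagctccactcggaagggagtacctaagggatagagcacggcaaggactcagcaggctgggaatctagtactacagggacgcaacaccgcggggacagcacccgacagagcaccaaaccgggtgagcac
Rab3a: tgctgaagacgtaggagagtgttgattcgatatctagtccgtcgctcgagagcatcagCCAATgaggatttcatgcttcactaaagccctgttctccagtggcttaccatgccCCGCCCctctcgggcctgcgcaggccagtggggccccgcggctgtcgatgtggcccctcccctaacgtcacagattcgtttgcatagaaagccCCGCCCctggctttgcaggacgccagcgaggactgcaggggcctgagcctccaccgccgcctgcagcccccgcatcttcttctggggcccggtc

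The other Rab3 genes did not follow Rab3a. Rab3b signal was 6.57, 6.46, 6.27 and 6.70 on the fresh TI arrays, 6.37, 6.26, 6.46 and 6.48 on the fresh TII arrays and 6.25, 6.20 and 6.19 on the cultured arrays. Rab3c signal was 4.11, 3.998, 4.14 and 4.08 on the fresh TI arrays, 4.13, 4.03, 4.04 and 3.98 on the fresh TII arrays and 3.99, 4.14 and 4.02 on the cultured arrays. Rab3d signal was 6.22, 6.06, 6.13 and 6.36 on the fresh TI arrays, 6.09, 6.05, 6.07 and 6.04 on the fresh TII arrays and 6.29, 5.88 and 5.93 on the cultured arrays. Their groups overlapped between the fresh cells, with fresh TI minus fresh TII differences of 0.11 ± 0.09, 0.04 ± 0.07 and 0.13 ± 0.10. Rab3b alone of them was called anywhere, higher in fresh TI than in cultured cells by 0.29 ± 0.10, adjusted p = 0.0225. That call was lost without fresh TI array 1 or 4 or cultured array 2 or 3. Its other probe set gave -0.01 there and was lower in fresh TI than fresh TII cells (-0.22, adjusted p = 0.0322). Rab3d, which marks secretory granules of exocrine cells, differed by -0.03 ± 0.10 in culture with overlapping arrays. Rab26, another granule Rab, was called in none of the comparisons (0.07 ± 0.08, 0.14 ± 0.09 and -0.08 ± 0.09).

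Rab38 serves the making of lysosome-related organelles, lamellar bodies among them. Rab38 signal was 6.52, 6.66, 6.82 and 6.56 on the fresh TI arrays, 6.79, 6.56, 6.74 and 6.56 on the fresh TII arrays and 6.39, 6.25 and 6.16 on the cultured arrays. All 3 cultured arrays lay below all 8 fresh arrays. The difference in culture was -0.39 ± 0.10, adjusted p = 0.00584, and that between the fresh cell types was -0.02 ± 0.09. The other Rab38 probe set gave 0.15 in culture, not called (adjusted p = 0.305), and was higher in fresh TI than fresh TII cells by 0.33, so the call depends on the probe set. Over the 7 granule Rabs, none was called higher against fresh TII cells. In fresh TI cells 2 were lower (28.6%, against 21.2% of all genes) and 3 fell in culture (42.9%, against 14.0%). Roles were assigned with earlier results of these data known, so shares by role, here and below, are descriptions and not tests. Markers of other cells moved with Rab27a and Rab3a: the summed linear signal of 5 airway markers was 471 to 512 on fresh TI, 4221 to 5072 on fresh TII and 433 to 702 on cultured arrays, with 4 of the 5 lower in fresh TI cells and 4 of the 5 falling in culture. Their part in these differences was not tested.

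**Figure D3:**
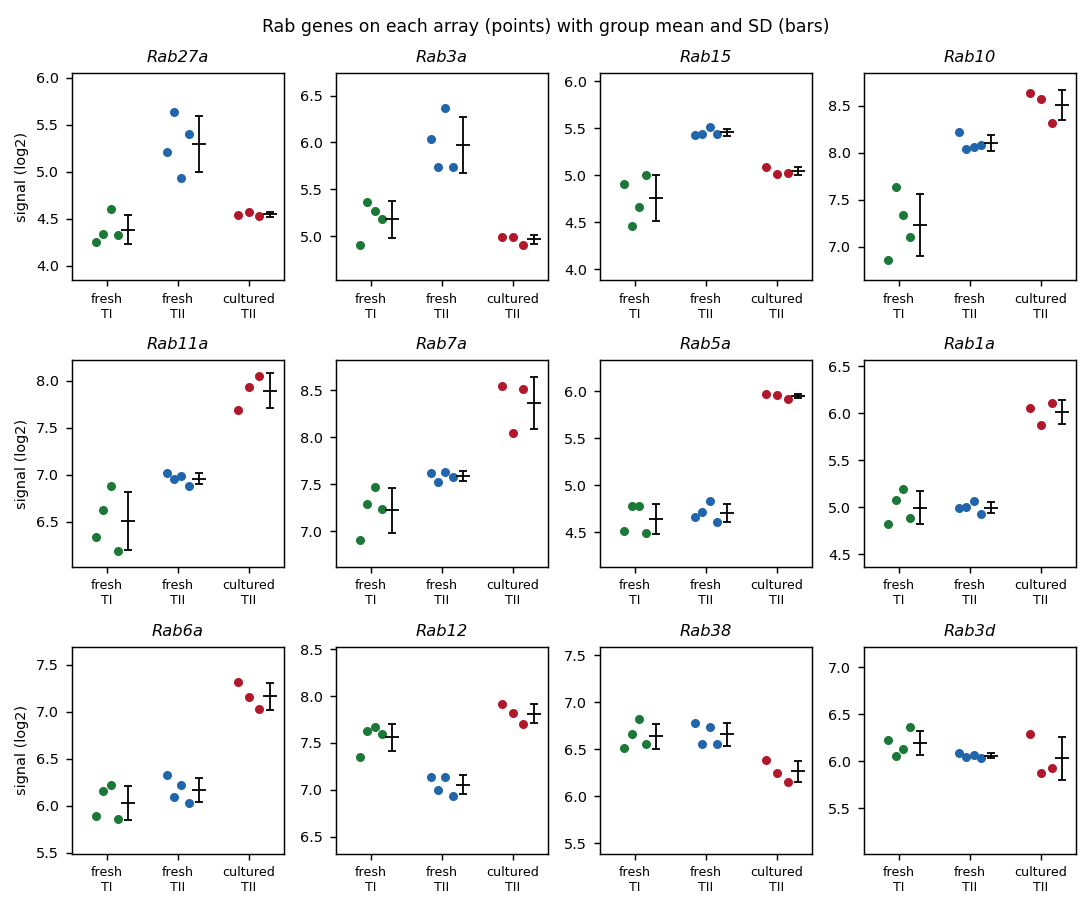
Log2 signal (vertical axes, each spanning the same range) of 12 Rab genes on every array: fresh TI (green), fresh TII (blue) and cultured TII (red), with points for arrays and bars for the group mean and SD. Rab27a, Rab3a and Rab15 are highest in fresh TII cells, while Rab5a, Rab1a and Rab6a stand apart in culture.

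Early secretory pathway members Rab1a and Rab6a rose in culture, and neither was called between the fresh cells. Rab1a controls transport from the endoplasmic reticulum to the Golgi. Rab1a signal was 4.82, 5.08, 5.20 and 4.88 on the fresh TI arrays, 4.99, 5.001, 5.06 and 4.93 on the fresh TII arrays and 6.06, 5.87 and 6.11 on the cultured arrays. The fresh groups overlapped and each cultured array was above all fresh ones, with a rise of 1.02 ± 0.10, adjusted p = 2.7e-06. Rab6a works in the Golgi and in transport back from it. Rab6a signal was 5.89, 6.16, 6.22 and 5.86 on the fresh TI arrays, 6.32, 6.10, 6.23 and 6.03 on the fresh TII arrays and 7.32, 7.15 and 7.03 on the cultured arrays. It rose by 0.996 ± 0.11, adjusted p = 1.12e-05, again with no overlap between the cultured and the fresh arrays, and the fresh types differed by -0.14 ± 0.10.

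The remaining ER and Golgi Rabs gave smaller values. Rab33b, a Golgi Rab, rose by 0.28 ± 0.09, adjusted p = 0.033 on the probe set used, but its other probe set fell by 0.31 (adjusted p = 0.0423), and the call also failed under median centring with a matched standard deviation and with 5 of the arrays left out in turn, fresh TII arrays 2, 3 and 4 and cultured arrays 1 and 2. Rab34 was higher in fresh TI than in cultured cells by 0.38 ± 0.09, adjusted p = 0.00318, where its other probe set gave -0.005. Rab2a, which acts between the ER and the Golgi, and Rab29 were called in none of the comparisons, with differences in culture of 0.18 ± 0.10 and 0.08 ± 0.07. Of the 6 ER and Golgi Rabs, 3 rose in culture, none fell, and none was called between the fresh cell types. Over all genes 20.5% rose and 14.0% fell in culture, and 33.0% were higher and 21.2% lower in fresh TI than fresh TII cells.

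Endosomal Rabs gave the greatest rise of any member in culture. Rab5a drives fusion of early endosomes. Rab5a signal was 4.51, 4.78, 4.78 and 4.49 on the fresh TI arrays, 4.67, 4.72, 4.83 and 4.61 on the fresh TII arrays and 5.97, 5.96 and 5.92 on the cultured arrays. The fresh TI and fresh TII arrays overlapped, and the cultured arrays stood more than 1 log2 unit above every fresh one. The rise was 1.24 ± 0.09, adjusted p = 2.14e-07, a 2.37-fold change, and the difference between the fresh types was -0.07 ± 0.08. Its paralogue Rab5b did not follow. Rab5b signal was 7.14, 7.52, 7.63 and 7.09 on the fresh TI arrays, 7.33, 7.25, 7.13 and 7.10 on the fresh TII arrays and 7.06, 7.10 and 7.29 on the cultured arrays. All 3 groups overlapped, and the change in culture was -0.05 ± 0.13. The Rab5a promoter, shown as that of the member with the greatest rise, lies at chr9:6720877-6721176 on the plus strand and holds GC boxes and an E-box.
Rab5a: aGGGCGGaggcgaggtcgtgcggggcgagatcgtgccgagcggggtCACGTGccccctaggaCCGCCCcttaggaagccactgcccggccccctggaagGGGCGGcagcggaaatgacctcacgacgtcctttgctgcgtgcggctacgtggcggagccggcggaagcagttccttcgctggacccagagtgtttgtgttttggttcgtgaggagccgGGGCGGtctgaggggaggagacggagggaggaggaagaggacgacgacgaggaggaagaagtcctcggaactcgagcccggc

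Rab11a, Rab7a and Rab14 had their highest signal in culture and their lowest in fresh TI cells. Rab11a marks the recycling endosome. Rab11a signal was 6.34, 6.63, 6.88 and 6.19 on the fresh TI arrays, 7.02, 6.96, 6.99 and 6.88 on the fresh TII arrays and 7.69, 7.94 and 8.05 on the cultured arrays. The 3 groups were separate, though fresh TI array 3 came close to the fresh TII arrays, with -0.45 ± 0.13, adjusted p = 0.0121 for fresh TI and 0.93 ± 0.14, adjusted p = 0.000172 for culture, so that fresh TI and cultured cells were 2.61-fold apart, the furthest of any member. Its paralogue Rab11b spread more widely between arrays. Rab11b signal was 7.24, 6.87, 7.66 and 7.14 on the fresh TI arrays, 7.91, 7.62, 7.31 and 7.56 on the fresh TII arrays and 7.76, 7.76 and 7.90 on the cultured arrays. It was called only between fresh TI and cultured cells (-0.58 ± 0.17, adjusted p = 0.00968), and there not under quantile normalization. Of its other probe sets 1 gave 0.14 there and was not called, but was higher in fresh TI than fresh TII cells (0.19, adjusted p = 0.0329). The remaining probe set gave -0.60 in fresh TI against cultured cells. It was called in the other comparisons too, at -0.31 for fresh TI and 0.30 for culture. Between the fresh types these other probe sets thus had opposite calls. Rab11fip5, a Rab11 effector, rose in culture by 0.41 ± 0.07, adjusted p = 0.000771.

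Rab7a controls late endosomes and their fusion with lysosomes. Rab7a signal was 6.90, 7.29, 7.47 and 7.23 on the fresh TI arrays, 7.62, 7.52, 7.63 and 7.58 on the fresh TII arrays and 8.54, 8.04 and 8.51 on the cultured arrays. The groups did not overlap, with differences of -0.36 ± 0.13, adjusted p = 0.0284 for fresh TI and 0.78 ± 0.14, adjusted p = 0.00057 for culture. Rab14 acts between the Golgi and endosomes. Rab14 signal was 6.31, 6.80, 6.78 and 6.01 on the fresh TI arrays, 6.91, 6.99, 6.83 and 6.76 on the fresh TII arrays and 7.74, 7.47 and 7.45 on the cultured arrays. Fresh TI arrays 2 and 3 lay within the fresh TII range. The fresh TI difference was -0.40 ± 0.15, adjusted p = 0.0447, and the rise in culture was 0.68 ± 0.17, adjusted p = 0.00615. The fresh TI calls of Rab7a and Rab14 were lost under quantile normalization and under median centring with a matched standard deviation. Without fresh TI array 1, fresh TII array 1, 3 or 4 neither was called, and Rab14 also lost its call without fresh TI array 4, fresh TII array 2 or cultured array 2 or 3.

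Rab12 and Rab15 ran in opposite directions between the fresh cells. Rab12, which directs recycling cargo to lysosomes, was higher in both other groups than in fresh TII cells. Rab12 signal was 7.35, 7.63, 7.67 and 7.59 on the fresh TI arrays, 7.14, 7.004, 7.13 and 6.93 on the fresh TII arrays and 7.91, 7.82 and 7.70 on the cultured arrays. The fresh TII arrays lay below the rest, with 0.51 ± 0.09, adjusted p = 0.000404 for fresh TI and 0.76 ± 0.09, adjusted p = 2.74e-05 for culture. Rab15, a GTPase of endocytic recycling, was lower in both. Rab15 signal was 4.91, 4.45, 4.66 and 4.998 on the fresh TI arrays, 5.43, 5.44, 5.51 and 5.44 on the fresh TII arrays and 5.09, 5.01 and 5.03 on the cultured arrays. Both other groups lay below every fresh TII array, with -0.70 ± 0.10, adjusted p = 0.000128 for fresh TI and -0.41 ± 0.11, adjusted p = 0.0105 for culture. Fresh TI lay just below culture (-0.28 ± 0.11, adjusted p = 0.0411), a call lost without fresh TI array 2 or 3 or without any one of the fresh TII and cultured arrays.

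Rab4a and Rab4b sort cargo for fast recycling. Rab4a signal was 4.05, 3.84, 3.97 and 3.94 on the fresh TI arrays, 4.12, 4.10, 3.94 and 4.09 on the fresh TII arrays and 4.57, 4.46 and 4.17 on the cultured arrays. Rab4b signal was 7.43, 7.47, 7.45 and 7.48 on the fresh TI arrays, 7.49, 7.38, 7.43 and 7.46 on the fresh TII arrays and 7.55, 7.45 and 7.39 on the cultured arrays. Rab4a rose in culture by 0.34 ± 0.10, adjusted p = 0.015, a call lost without cultured array 1 or 2, while Rab4b differed by 0.02 ± 0.07 with overlapping arrays. The other Rab4b probe set was higher in fresh TI than in fresh TII cells by 0.29 (adjusted p = 0.0024). Of the 11 endosomal members, 7 rose and 1 fell in culture (63.6% and 9.09%, against 20.5% and 14.0% of all genes). In fresh TI against fresh TII cells 4 were lower and 1 higher (36.4% and 9.09%, against 21.2% and 33.0% of all genes).

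Rabs of polarised delivery to the cell surface were led by Rab10, which carries cargo from the trans-Golgi network and endosomes to the plasma membrane. Rab10 signal was 6.86, 7.63, 7.34 and 7.10 on the fresh TI arrays, 8.22, 8.04, 8.06 and 8.08 on the fresh TII arrays and 8.63, 8.57 and 8.32 on the cultured arrays. Each fresh TI array lay well below the other groups, and the difference from fresh TII cells was -0.87 ± 0.14, adjusted p = 0.000239. The cultured arrays were all above the fresh TII arrays, but 0.40 ± 0.15, adjusted p = 0.0535 did not pass the threshold. On its other probe set the fresh types differed by -0.12, not called (adjusted p = 0.57), while fresh TI was again lower than culture (-0.66, adjusted p = 0.0112). Rab13, linked to tight junctions, had the same order, with -0.25 ± 0.08, adjusted p = 0.0144 for fresh TI.

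Rab3ip, the exchange factor that activates Rab8, changed in culture. Rab3ip signal was 4.06, 4.14, 4.21 and 3.76 on the fresh TI arrays, 4.21, 4.19, 3.85 and 4.03 on the fresh TII arrays and 5.14, 4.88 and 5.12 on the cultured arrays. The fresh groups overlapped, all cultured arrays were higher, and the rise was 0.98 ± 0.12, adjusted p = 2.9e-05. Rab8a itself, which drives exocytosis at the apical surface, rose by 0.20 ± 0.07, adjusted p = 0.0467, a call near the threshold, lost under quantile normalization and median centring with a matched standard deviation and without fresh TI array 1 or 3, cultured array 1 or 3 or any one of the fresh TII arrays. Rab8b was higher in fresh TI than fresh TII cells. Rab8b signal was 4.63, 5.14, 4.87 and 4.26 on the fresh TI arrays, 4.14, 4.28, 4.15 and 4.26 on the fresh TII arrays and 4.32, 4.66 and 4.96 on the cultured arrays. Fresh TI array 4 fell within the fresh TII range, and the call (0.52 ± 0.17, adjusted p = 0.0217) was lost without fresh TI array 2 or 3, without fresh TII array 1 and under 2 of the scalings. Rab28 was lower in fresh TI cells than in fresh TII cells (-0.33 ± 0.09, adjusted p = 0.00673) and than in culture (-0.26 ± 0.09, adjusted p = 0.0278), the second call lost without fresh TI array 1 or 4 or cultured array 1 or 3.

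Among SNAREs of the plasma membrane, Snap23, Stx3 and Stx4 rose in culture, and Snap25 and Stx1a were not called in that comparison. Snap23 is the widely used surface SNARE that pairs with syntaxins for exocytosis outside neurons. Snap23 signal was 5.84, 5.66, 5.77 and 5.53 on the fresh TI arrays, 5.65, 5.79, 5.78 and 5.78 on the fresh TII arrays and 7.05, 6.83 and 6.72 on the cultured arrays. The fresh groups overlapped, and the cultured arrays were all higher, by 1.12 ± 0.10, adjusted p = 1.03e-06. Its other probe set rose by 0.99 and was slightly lower in fresh TI than fresh TII cells (-0.28, adjusted p = 0.0106). The neuronal paralogue Snap25 did not rise. Snap25 signal was 6.34, 5.54, 6.19 and 6.24 on the fresh TI arrays, 5.57, 5.81, 5.59 and 5.91 on the fresh TII arrays and 5.69, 5.77 and 5.65 on the cultured arrays. It was called in none of the comparisons on this probe set (0.35 ± 0.15 for fresh TI and -0.02 ± 0.16 for culture). Of its 3 other probe sets 2 were higher in fresh TI than fresh TII cells, by 0.37 and 0.32. Those 2 were dim, with mean signals of 2.42 and 2.15 over the arrays. The other was not called (0.175, adjusted p = 0.178). The Snap23 promoter, shown as that of the SNARE with the greatest rise, lies at chr3:127967636-127967935 on the plus strand and holds a CCAAT box on the reverse strand.
Snap23: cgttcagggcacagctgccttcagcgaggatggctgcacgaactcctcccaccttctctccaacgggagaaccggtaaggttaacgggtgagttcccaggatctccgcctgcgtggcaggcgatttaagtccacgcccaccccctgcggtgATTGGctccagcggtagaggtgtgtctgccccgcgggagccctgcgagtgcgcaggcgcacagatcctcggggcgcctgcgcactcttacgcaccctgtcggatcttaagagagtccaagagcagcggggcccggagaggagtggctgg

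The surface syntaxins differed from each other. Stx3, the apical syntaxin of many epithelia, was lowest in fresh TII cells. Stx3 signal was 4.69, 4.83, 4.87 and 4.67 on the fresh TI arrays, 4.21, 4.12, 4.22 and 4.30 on the fresh TII arrays and 5.15, 5.03 and 5.18 on the cultured arrays. No groups overlapped, with 0.55 ± 0.07, adjusted p = 5.54e-05 for fresh TI and 0.91 ± 0.08, adjusted p = 1.1e-06 for culture. Stx4, the basolateral syntaxin, varied among arrays of a group. Stx4 signal was 4.73, 5.12, 5.11 and 4.20 on the fresh TI arrays, 4.88, 4.83, 4.52 and 4.41 on the fresh TII arrays and 5.21, 5.12 and 5.62 on the cultured arrays. It rose in culture by 0.66 ± 0.21, adjusted p = 0.0267, a call lost without fresh TII array 3 or 4 or cultured array 3.

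Stx1a, the syntaxin of neuronal and endocrine exocytosis, was higher in fresh TI cells. Stx1a signal was 6.84, 6.51, 6.81 and 6.94 on the fresh TI arrays, 6.30, 6.27, 6.35 and 6.39 on the fresh TII arrays and 6.68, 6.50 and 6.34 on the cultured arrays. All fresh TI arrays lay above all fresh TII arrays (0.45 ± 0.10, adjusted p = 0.00224), the other probe set gave 0.13 and was not called, and culture differed from fresh TII cells by 0.18 ± 0.10. Fresh TI was also called higher than culture (0.27 ± 0.105, adjusted p = 0.0415), where the other probe set gave 0.23 (adjusted p = 0.0248). On the probe set used that call was lost under median centring and without any one of most single arrays. Over the 5 surface SNAREs, 3 rose in culture (60%, against 20.5% of all genes) and none fell (14.0% of all genes). In fresh TI against fresh TII cells 2 were higher (40%, against 33.0% of all genes) and none lower (21.2% of all genes).

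**Figure D4:**
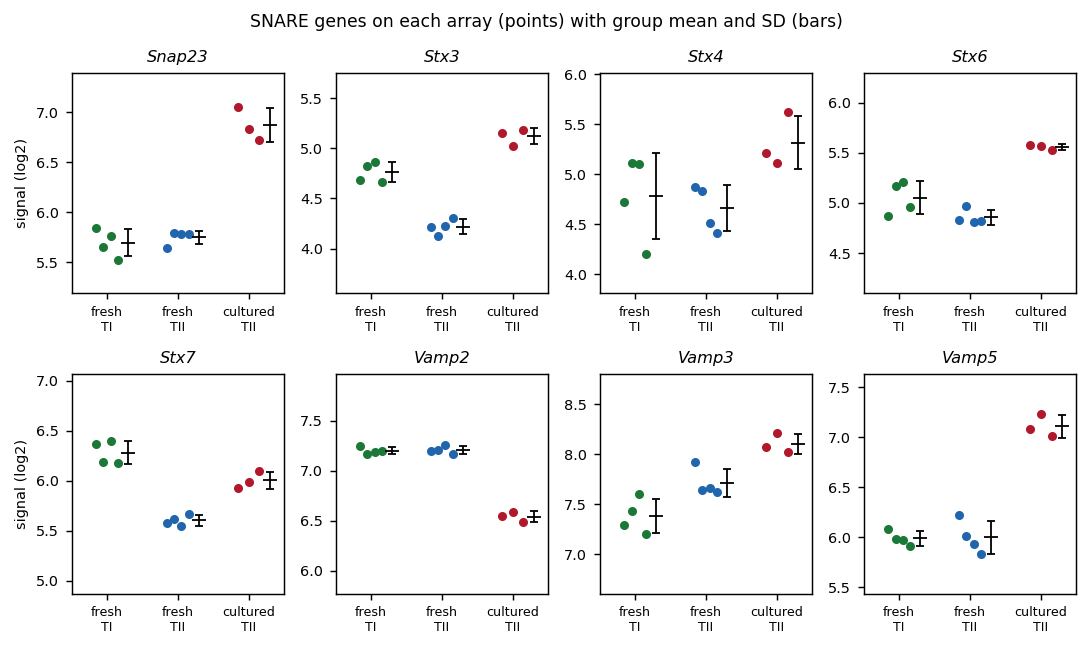
Log2 signal (vertical axes, each spanning the same range) of 8 SNARE genes on every array: fresh TI (green), fresh TII (blue) and cultured TII (red), with points for arrays and bars for the group mean and SD. Snap23 and Vamp5 stand apart upward and Vamp2 downward in culture, while Stx7 is highest in fresh TI cells.

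Among syntaxins of the Golgi and endosomes, Stx7 gave the highest fresh TI difference of any member. It serves fusion at late endosomes. Stx7 signal was 6.37, 6.18, 6.39 and 6.17 on the fresh TI arrays, 5.58, 5.61, 5.55 and 5.67 on the fresh TII arrays and 5.92, 5.99 and 6.10 on the cultured arrays. The groups did not overlap, with fresh TI highest, culture next and fresh TII lowest (0.68 ± 0.07, adjusted p = 9.68e-06 and 0.40 ± 0.08, adjusted p = 0.00146). Stx6, a trans-Golgi and endosome syntaxin, set culture apart from the fresh cells. Stx6 signal was 4.87, 5.17, 5.21 and 4.96 on the fresh TI arrays, 4.83, 4.97, 4.81 and 4.82 on the fresh TII arrays and 5.58, 5.57 and 5.53 on the cultured arrays. It rose by 0.70 ± 0.09, adjusted p = 3.79e-05, and the fresh types differed by 0.20 ± 0.08, adjusted p = 0.0626, short of the threshold.

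Stx8 and Stx12 were not called against fresh TII cells. Stx8 signal was 6.85, 6.56, 6.76 and 6.46 on the fresh TI arrays, 6.59, 6.45, 6.36 and 6.49 on the fresh TII arrays and 6.92, 6.84 and 6.55 on the cultured arrays. Stx12 signal was 6.59, 6.64, 6.75 and 6.64 on the fresh TI arrays, 6.93, 6.78, 6.77 and 6.75 on the fresh TII arrays and 6.92, 6.91 and 6.85 on the cultured arrays. Stx8, of late endosomes, was not called, and Stx12, of recycling endosomes, was called only as lower in fresh TI than in cultured cells (-0.24 ± 0.07, adjusted p = 0.0121). On its other probe set Stx12 rose in culture by 0.48 (adjusted p = 0.00524). Stx5 acts between the ER and the Golgi. Stx5 signal was 6.66, 6.88, 6.83 and 6.59 on the fresh TI arrays, 6.80, 6.92, 6.76 and 6.75 on the fresh TII arrays and 6.54, 6.48 and 6.69 on the cultured arrays. Its cultured arrays all lay below its fresh TII arrays without a call (-0.24 ± 0.09, adjusted p = 0.0571), but both other probe sets rose in culture, by 0.24 and 0.34. Those probe sets were lower in fresh TI than in cultured cells (-0.39 and -0.81), where the one used gave 0.17 ± 0.09 and no call, and the second was also lower in fresh TI than fresh TII cells (-0.47), so the result depends on the probe set. Snap29, which has broad intracellular roles, was higher in fresh TI cells by 0.22 ± 0.09, adjusted p = 0.0454, close to the threshold and not called under any of the 3 scalings or without fresh TI array 1, 2 or 4, fresh TII array 1 or 2 or cultured array 2.

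Vesicle SNAREs split. Vamp2, the partner of regulated exocytosis, fell in culture. Vamp2 signal was 7.24, 7.17, 7.19 and 7.20 on the fresh TI arrays, 7.20, 7.21, 7.25 and 7.17 on the fresh TII arrays and 6.55, 6.59 and 6.48 on the cultured arrays. The fresh types overlapped within a narrow range and the 3 cultured arrays were lower (-0.67 ± 0.06, adjusted p = 2.28e-06). The other probe set also fell by 0.28. On that probe set Vamp2 was higher in fresh TI than fresh TII cells by 0.34. Vamp3, the cellubrevin of recycling endosomes, rose instead. Vamp3 signal was 7.29, 7.43, 7.60 and 7.20 on the fresh TI arrays, 7.92, 7.64, 7.67 and 7.62 on the fresh TII arrays and 8.08, 8.21 and 8.02 on the cultured arrays. The groups were separate, with -0.33 ± 0.10, adjusted p = 0.0135 for fresh TI and 0.39 ± 0.11, adjusted p = 0.0113 for culture, the second lost without cultured array 2 and the first under quantile normalization.

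Vamp5 is a plasma membrane and vesicle SNARE first described in muscle. Vamp5 signal was 6.09, 5.98, 5.98 and 5.91 on the fresh TI arrays, 6.22, 6.01, 5.93 and 5.84 on the fresh TII arrays and 7.08, 7.23 and 7.01 on the cultured arrays. The cultured arrays were all higher, by 1.11 ± 0.10, adjusted p = 1e-06. Its other probe set gave 0.04 (adjusted p = 0.73), and in fresh TI against cultured cells the probe sets were called in opposite directions, at -1.12 and 0.25. Vamp1, another neuronal vesicle SNARE, was higher in fresh TI cells. Vamp1 signal was 6.96, 6.45, 6.65 and 6.97 on the fresh TI arrays, 6.32, 6.37, 6.52 and 6.37 on the fresh TII arrays and 6.35, 6.15 and 6.33 on the cultured arrays. Fresh TI array 2 lay within the fresh TII range, and the call (0.36 ± 0.11, adjusted p = 0.0164) was lost without fresh TI array 1.

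Regulators of SNARE assembly showed small differences. Stxbp2 signal was 4.99, 4.93, 5.03 and 4.99 on the fresh TI arrays, 4.95, 4.90, 4.84 and 4.90 on the fresh TII arrays and 5.10, 5.17 and 5.16 on the cultured arrays. Stxbp2, the Munc18 form that serves syntaxin 3 in epithelia and blood cells, rose by 0.25 ± 0.06, adjusted p = 0.00834. Stxbp5 signal was 4.32, 4.29, 4.29 and 4.45 on the fresh TI arrays, 4.35, 4.22, 4.18 and 4.19 on the fresh TII arrays and 4.30, 4.60 and 4.46 on the cultured arrays. Stxbp5, tomosyn, which holds syntaxins away from fusion, differed by 0.22 ± 0.08, adjusted p = 0.0598, short of the threshold. Napa, the adaptor that brings Nsf to used SNARE complexes, was lower in fresh TI than fresh TII cells (-0.20 ± 0.06, adjusted p = 0.0139), but had the opposite sign under quantile normalization (0.07, not called), and its difference from culture, -0.30 ± 0.07, turned likewise (0.07). Nsf, the ATPase that takes the complexes apart, was higher in fresh TI cells by 0.27 ± 0.10, adjusted p = 0.0314, a call that none of the 3 scalings kept and that was lost without fresh TI array 1 or 4 or fresh TII array 1 or 2. Snap91 was called in none of the comparisons (0.15 ± 0.08, 0.06 ± 0.09 and 0.08 ± 0.09).

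Synaptotagmin differences were small. Syt17 was ordered across all 3 groups. Syt17 signal was 6.15, 6.35, 6.21 and 6.21 on the fresh TI arrays, 5.83, 5.94, 5.82 and 5.87 on the fresh TII arrays and 5.50, 5.56 and 5.65 on the cultured arrays. No arrays overlapped between groups, with 0.37 ± 0.07, adjusted p = 0.000753 for fresh TI and -0.29 ± 0.07, adjusted p = 0.00657 for culture. Syt5, found on dense-core granules, had its lowest arrays in culture. Syt5 signal was 6.93, 6.75, 6.69 and 7.06 on the fresh TI arrays, 6.96, 6.88, 7.03 and 6.90 on the fresh TII arrays and 6.69, 6.49 and 6.37 on the cultured arrays. The difference in culture was -0.42 ± 0.10, adjusted p = 0.00572, with every cultured array below every fresh TII array. Syt12 rose by 0.63 ± 0.14, adjusted p = 0.00334. Syt12 signal was 3.30, 3.38, 3.26 and 3.21 on the fresh TI arrays, 2.80, 3.08, 3.05 and 2.995 on the fresh TII arrays and 4.04, 3.53 and 3.28 on the cultured arrays. Cultured array 1 stood well above the other cultured arrays, and the call was kept when any single array was left out. All Syt12 readings were dim, below the lower quartile of their array, which was at least 4.14.

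Syt11 and Syt2 were higher in fresh TI than in either other group. Syt11 signal was 6.002, 6.46, 6.44 and 6.10 on the fresh TI arrays, 5.87, 6.01, 5.91 and 6.01 on the fresh TII arrays and 5.61, 5.77 and 5.93 on the cultured arrays. Syt2 signal was 2.90, 2.64, 2.71 and 2.54 on the fresh TI arrays, 2.41, 2.35, 2.27 and 2.38 on the fresh TII arrays and 2.41, 2.30 and 2.14 on the cultured arrays. Syt11, which does not bind calcium and acts in membrane retrieval, differed by 0.30 ± 0.11, adjusted p = 0.0347 from fresh TII cells, lost under median centring and without any one of fresh TI arrays 2 and 3 and the 4 fresh TII arrays. Syt2, a fast calcium sensor of neurons, differed by 0.34 ± 0.09, adjusted p = 0.00556, lost under quantile normalization and median centring with a matched standard deviation. All Syt2 readings were dim too, below the lower quartile of their array, which was at least 4.14.

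Syt4, Syt8 and Syt9 were called as slightly higher in fresh TI cells. Syt4 signal was 4.55, 4.23, 4.40 and 4.57 on the fresh TI arrays, 4.24, 4.20, 4.11 and 4.26 on the fresh TII arrays and 4.50, 4.38 and 4.22 on the cultured arrays. Syt8 signal was 5.67, 5.50, 5.61 and 5.83 on the fresh TI arrays, 5.37, 5.42, 5.43 and 5.49 on the fresh TII arrays and 5.64, 5.67 and 5.42 on the cultured arrays. Syt9 signal was 4.01, 3.79, 4.05 and 4.36 on the fresh TI arrays, 3.85, 3.76, 3.87 and 3.69 on the fresh TII arrays and 3.87, 3.77 and 3.84 on the cultured arrays. Fresh TI and fresh TII arrays overlapped for Syt4 and Syt9 and not for Syt8. The fresh TI difference was 0.23 ± 0.09, adjusted p = 0.0419 for Syt4, 0.23 ± 0.08, adjusted p = 0.0372 for Syt8 and 0.26 ± 0.10, adjusted p = 0.0469 for Syt9, and none of them was called under any of the 3 scalings. Leaving out single arrays also ended each call: without fresh TI array 1 or 4 or fresh TII array 1, 2 or 3 none of the 3 was called, and other arrays ended the call of 1 or more of them.

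The other 5 did not pass the test anywhere. Syt1 signal was 2.86, 2.60, 2.94 and 3.43 on the fresh TI arrays, 3.01, 2.94, 3.13 and 3.04 on the fresh TII arrays and 3.10, 2.86 and 3.11 on the cultured arrays. Syt3 signal was 6.17, 6.06, 6.10 and 6.21 on the fresh TI arrays, 6.003, 6.04, 6.05 and 6.11 on the fresh TII arrays and 5.97, 6.01 and 6.02 on the cultured arrays. Syt6 signal was 4.80, 4.19, 4.62 and 4.88 on the fresh TI arrays, 4.55, 4.45, 4.60 and 4.57 on the fresh TII arrays and 4.67, 4.50 and 4.48 on the cultured arrays. Syt1, the main calcium sensor of synaptic vesicles, Syt3 and Syt6 overlapped between the fresh cells. Syt7 signal was 4.69, 4.32, 4.61 and 5.14 on the fresh TI arrays, 4.71, 4.69, 4.78 and 4.76 on the fresh TII arrays and 4.56, 4.49 and 4.34 on the cultured arrays. Syt10 signal was 4.78, 4.41, 4.51 and 4.91 on the fresh TI arrays, 4.41, 4.51, 4.40 and 4.49 on the fresh TII arrays and 4.47, 4.51 and 4.64 on the cultured arrays. Syt7, a slow, high-affinity calcium sensor that also acts on lysosomes, lay in culture below all fresh TII arrays without a call (-0.27 ± 0.14, adjusted p = 0.186), and its fresh TI arrays spanned both other groups. Summed signal of 9 neuroendocrine and nerve markers was 262 to 283 on fresh TI, 254 to 264 on fresh TII and 256 to 271 on cultured arrays.

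Set side by side over the 3 groups, 46 of the 63 members were called in at least 1 comparison, 9 in all 3 and 17 in none. The commonest order among the called members, found in 12, was culture above both fresh types with no call between those: Rab1a, Rab6a, Rab33b, Rab4a, Rab5a, Rab11fip5, Rab3ip, Snap23, Stx4, Stx6, Stxbp2 and Vamp5. Against fresh TI cells the call of Stxbp2 was lost with any single array left out, that of Stx4 without fresh TI array 1 or 4, fresh TII array 2 or 3 or cultured array 1 or 3, and that of Rab33b without fresh TI array 1 or 4 or cultured array 1. Rab33b and Vamp5 had this order only on the probe set used. In fresh TI against cultured cells their other probe sets were called in the opposite direction. On the other probe set of Snap23 the fresh types were also called apart. Rab11a, Rab14, Rab7a and Vamp3 were called in all comparisons with culture highest and fresh TI lowest. Rab27a and Rab3a were highest in fresh TII cells with no call between the others. Rab38, Syt5 and Vamp2 were lowest in culture with no call between the fresh types. Of the members called, 6 of 14 higher and 7 of 11 lower in fresh TI than fresh TII cells kept their call under all 3 scalings, as did 19 of the 21 that rose and all 7 that fell in culture.

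Signal and difference were related across the whole array. The probe sets were split by mean signal into 4 bins of 2185, from dimmest to brightest. The median fresh TI minus fresh TII difference was 0.17, 0.17, 0.09 and -0.07, and the median change in culture was -0.02, -0.02, -0.01 and 0.08. For fresh TI minus cultured TII cells the medians were 0.195, 0.187, 0.097 and -0.179, the widest span of the 3 comparisons. Of the members, 9, 20, 18 and 16 lay in these bins. The RNA end controls were read as well: the 3′ minus 5′ log2 signal of beta-actin was 0.21 to 0.43 on fresh TI, 0.32 to 0.43 on fresh TII and -0.33 to -0.08 on cultured arrays. For GAPDH the same measure was 0.41 to 0.69, 0.47 to 0.57 and 0.30 to 0.45. There the cultured range overlapped that of fresh TI cells and lay below that of fresh TII cells. The part of either in the members' differences was not tested.

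Where a member had several probe sets, their calls were often unequal. The 23 such members had 28 further probe sets. In fresh TI against fresh TII cells 13 of the 28 had the same call as the one used, in 15 pairs 1 probe set was called and the other was not, and 0 had opposite calls. In culture the counts were 19, 8 and 1, and in fresh TI against cultured cells 16, 10 and 2. The calls opposite to that of the probe set used were those of Rab33b and Vamp5 given above.

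Genes that work with the members were counted from lists with the members left out. Of 31 measured exocytosis regulators, 10 were higher and 4 lower in fresh TI than fresh TII cells, and 6 rose and 2 fell in culture, with medians of 0.15 and -0.03 against 0.11 and -0.01 over all genes. Rph3al, an effector of Rab3 and Rab27 GTPases, had an order like theirs, at -1.47 ± 0.09 in fresh TI cells and -1.48 ± 0.10 in culture against fresh TII cells. Cadps2, which primes dense-core vesicles, differed by -1.001 ± 0.107 and -2.11 ± 0.12. S100a10 and Anxa2, which form a membrane-binding complex, rose in culture by 2.04 ± 0.17 and 1.64 ± 0.09. Both were also higher in fresh TI than fresh TII cells, by 1.59 ± 0.16 and 1.10 ± 0.08. Of 12 lamellar body and secretion genes, 7 were lower and 3 higher in fresh TI than fresh TII cells, and 5 fell and 4 rose in culture.

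Coat proteins and Arf GTPases, which bud the vesicles, rose in culture in 14 of 41 and fell in 4, and were lower in fresh TI than fresh TII cells in 14 and higher in 6. Over all genes 20.5% rose and 14.0% fell in culture, and in fresh TI cells 33.0% were higher and 21.2% lower. The list medians were 0.16 in culture and -0.13 in fresh TI cells, against -0.01 and 0.11 over all genes. Ap2s1, Ap2a2 and Ap2m1, subunits of the clathrin adaptor of the plasma membrane, rose by 1.43 ± 0.14, 1.11 ± 0.12 and 0.84 ± 0.08. Arf6, a GTPase of the cell surface and endosomes, was lower in fresh TI than fresh TII cells (-1.73 ± 0.17). Of 7 Golgi and ER SNAREs outside the member families, 2 rose in culture (Ykt6 by 1.09 ± 0.09 and Gosr2 by 0.69 ± 0.09) and 1 fell (Use1, -0.88 ± 0.10). Of 10 Rab cycle regulators, 3 rose and 1 fell in culture, with Gdi2, which extracts Rabs from membranes, rising by 0.97 ± 0.13. Of 22 exocyst and tethering genes, 4 rose and 1 fell, the exocyst regulator Rala by 0.69 ± 0.11.

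Markers of other cells that an isolate can hold were summed on the linear scale, with their part in the members' differences not tested. The 12 macrophage and leukocyte markers summed to 2635 to 8051 on fresh TI, 9274 to 10767 on fresh TII and 1566 to 2606 on cultured arrays, most of it from Lyz2 and Cd74, which TII cells also express. By gene, 5 of the 12 were higher and 3 lower in fresh TI than fresh TII cells, and 2 rose and 3 fell in culture. The shares of all genes, for this and the lists below, were 33.0% higher and 21.2% lower, and 20.5% rising and 14.0% falling. The 9 type II markers summed to 4534 to 10804 on fresh TI arrays, against 29352 to 31607 on fresh TII and 2040 to 2559 on cultured arrays. The 16 fibroblast and smooth muscle markers summed to 3667 to 5360, 2322 to 2518 and 2909 to 3769, with 8 of 16 higher in fresh TI than fresh TII cells, and the 8 endothelial markers to 642 to 850, 597 to 633 and 566 to 604, with 4 of 8 higher in fresh TI cells. The 11 mast cell and platelet markers summed to 412 to 451, 364 to 392 and 413 to 873, with 5 of 11 higher in fresh TI cells.

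Promoter sequences were found for 52 of the 63 members, and not for Rab26, Rab2a, Rab38, Snap25, Snap91, Syt5, Syt7, Syt10, Syt12, Syt17 or Vamp3. A GC box on either strand stood in 78.8% of these windows, against 33.1% of all 33469 promoter windows in the table and 55.7% of the 4191 windows of genes on the array. A CCAAT box stood in 44.2%, 37.5% and 37.8%, and an E-box in 13.5%, 6.42% and 8.42%. The NK2 core, the letters bound by factors of the NKX family, stood in 5.77%, 14.1% and 11.6%. A TATA box stood in 0 of the 52 member windows, 14.2% of all and 11.3% of those of array genes. None of the motifs searched contains another, though neighbouring matches can share letters, and a match is a description of the sequence only.

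Outside the member families, the genes whose signal ran most like that of Rab27a over the 11 arrays were Dnajb1 (Pearson r 0.964), Ifrd1 (0.958), Idi1 (0.957), Azin1 (0.957) and Adm (0.954). Rab27a was taken for this because its fresh TI difference was the greatest in size of any member. These 11 points fall in 3 groups, so r follows mainly the group means: Idi1, for example, differed from fresh TII cells by -3.34 in fresh TI cells and by -2.84 in culture.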

How the data were processed

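RNA of 11 samples was measured on Affymetrix rat arrays, and the authors deposited 1 value per probe set and array. The deposited values were taken as log2 signal from their range, 1.37 to 13.16. The authors' summary, background and normalization steps are not stated in the labels. The deposited values were used as given, with 59 control probe sets kept apart and no filter on dim signal, and the number of arrays limits the precision. Probe annotation came from a platform table, which named 1 gene for 7006 of the 8740 probe sets. All 63 member symbols matched current RefSeq genes by Entrez identifier.

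The 3 group means were estimated in 1 linear model of the 11 arrays (limma 3.58.1 under R 4.3.3, moderated by eBayes, two-sided tests), with p-values adjusted after Benjamini and Hochberg over 8740 probe sets and called under 0.05. The fit was tested on simulated data. Values on every array are printed for the 6 uppermost and 6 lowermost called members of each comparison and for the gene families set side by side. From each pathway list, up to 4 called genes with the greatest difference per comparison could be named. Markers were summed as 2 to the power of the signal. Members, roles, lists and motifs were chosen with earlier results of these data known. Alternatives were other scalings, filters on dim probe sets, other forms of the model, array weights, a replicate block, an adjusted p under 0.01, another choice of probe set, and fits without each single array. No pairing of arrays of different groups by the numbers in the titles was seen. After removal of group means, r was -0.20 to 0.28 for same-numbered arrays and -0.27 to 0.23 for others. These ranges overlap, so they cannot exclude that same-numbered arrays share a source.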

Additional observations from a re-analysis of the deposited data

Results flagged for a closer look

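On 7 of the 126 sets of 4 fresh arrays examined (1 for each member and fresh group), a single array stood far from the other 3 by Dixon's criterion, which chance meets in about 1 in 20 sets. In fresh TII cells Rab15 read 5.52 on array 3, where the others read 5.43 to 5.44. Rab4a read 3.94 on the same array, below the 4.09 to 4.12 of the others. Snap23 read 5.65 on fresh TII array 1, below 5.78 to 5.79, and Vamp3 read 7.92 on that array, above 7.62 to 7.67. Stx6 read 4.97 on fresh TII array 2, above 4.81 to 4.83. In fresh TI cells Rab29 read 3.75 on array 4, below 3.94 to 3.95, and Rab2a read 3.61 on array 2, above 3.49 to 3.51.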

How the results depend on the processing

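Directions were kept by most calls. Single members were followed under every alternative that held them, except the adjusted p under 0.01. Under those, 22 of the 28 members called in culture kept their call throughout. So did 23 of the 36 called between fresh TI and cultured cells, and 12 of the 25 called between the fresh types. Members called higher in fresh TI than fresh TII cells numbered 14, and 8 under quantile normalization, 8 under median centring, 8 with a matched standard deviation, 7 without the dimmest 50% of probe sets, which leaves fewer members, and 6 at an adjusted p under 0.01, while the range with single arrays left out was 7 to 15. Members called lower numbered 11, and 7 under quantile normalization and 5 at an adjusted p under 0.01. Without the dimmest 50% of probe sets 34 members remained, which by itself lowers the counts. The 21 that rose in culture became 13, where 29.7% of the remaining genes rose. The 25 lower in fresh TI than cultured cells became 15, where 36.6% of the remaining genes were lower. The 11 higher in fresh TI than cultured cells became 7 at an adjusted p under 0.01. With a replicate block the counts higher and lower were 13 and 11, 19 and 8, and 9 and 20 in the same order of comparisons, so no count moved by over 1.5 times.

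Signs turned in a few members. Quantile normalization gave 0.075 and 0.072 for Napa in fresh TI against fresh TII and cultured cells, and 0.19 for Rab4b in fresh TI against cultured cells. Averaging a gene's probe sets gave 0.22 for Rab4b and -0.34 for Stx5 in that comparison, 0.17 for Vamp2 between the fresh types, and -0.016 in culture and 0.13 in fresh TI against cultured cells for Rab33b. Probe sets without a shared-sequence suffix gave -0.31 and 0.52 for Rab33b in these, -0.22 for Rab3b between the fresh types and -0.01 against culture, and -0.005 for Rab34 against culture. The cause was not tested. The number of arrays, 3 or 4 a group, and dim signal limit what could be detected.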
